A study of Arabidopsis thaliana with 3 samples.

Results

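ORA47, AT1G33760 and AT1G64380 are 3 Arabidopsis thaliana genes for transcription factors of the AP2/ERF family. They were chosen by name because their signals differed in direction between the arrays of this study, and they are 3 of the 44 AP2/ERF genes, and of the 13286 genes of any kind, that have a probe set naming 1 gene. Each is read by 1 probe set that names no other gene. Leaf RNA of 2 week old plants was hybridised to 3 arrays, 1 for each genotype: a pair of lines in the Col-0 background that overexpress the MAP kinase kinase MKK2, and untreated Col-0 plants. The line called MKK2-A here has MKK2-w.t.4 in its title and MKK2-EE4 in its source name, and the line called MKK2-B has them the other way round, so which line carries the wild-type protein and which the constitutively active variant is not settled by the labels. The promoter that drives MKK2, the number of plants in each RNA pool and the number of independent transformants were not stated in the labels. Each genotype has 1 array, so no value below has a replicate error and no test across plants could be made.

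AP2/ERF proteins bind DNA through the AP2 domain and form one of the largest transcription factor families of plants. The family is usually split into the DREB and ERF subfamilies, whose proteins have a single AP2 domain, the AP2 subfamily, most of whose proteins have a pair of them, and the small RAV group. Many DREB and ERF genes are switched on quickly by cold, drought, wounding, ethylene or jasmonate. All 3 genes described here belong to the DREB subfamily. ORA47 is known as an activator of jasmonate synthesis genes that is itself induced by jasmonate and wounding. AT1G33760 is also called ERF022 and AT1G64380 ERF061, and much less is known of what they do.

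The values are MAS5 signals, which summarise the matched and mismatched probes of each probe set as 1 intensity on a linear scale. Each array was scaled to a trimmed mean of 100, and signals under 25 were raised to 25, called the floor here, before ratios were taken. Ratios of 2-fold or more were called higher or lower. The number of arrays limits the precision. Of 22746 probe sets compared, 10350 were under the floor in MKK2-A, 9712 in MKK2-B and 9549 in Col-0. Leaf genes were bright on every array: RCA, the rubisco activase gene, had signals of 5172, 5323 and 5899 in MKK2-A, MKK2-B and Col-0. Of the 15 markers of other tissues, 4 have a probe set naming 1 gene. The root markers EXPA7 and PYK10 were under the floor on all arrays, and the guard cell markers FMA and GC1 (AT1G22690), which leaves also express, had signals of 41.0 and 315 in MKK2-A, 52.4 and 290 in MKK2-B and 55.0 and 375 in Col-0. MKK2 itself has no probe set named here, so its overexpression could not be checked. Ratios of 3′ to 5′ signal, a sign of RNA integrity, lay between 1.15 and 4.09 in MKK2-A, between 0.966 and 3.83 in MKK2-B and between 0.816 and 3.75 in Col-0. In each line 4 of 6 control pairs were above Col-0, and their part in the results was not tested. Since whole leaves were sampled, fewer cells that express a gene and less RNA per cell cannot be told apart.

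AT1G33760 was high in both MKK2 lines and near background in Col-0. Its signal was 253 in MKK2-A, 97.4 in MKK2-B and 2.99 in Col-0. The Col-0 signal lies far under the floor, so the ratios to Col-0 are lower bounds: AT1G33760 was at least 10.1-fold higher in MKK2-A and at least 3.90-fold higher in MKK2-B. The MKK2-B bound depends on where the floor is set. With a floor of 50 it was at least 1.95-fold, short of the 2-fold threshold, and with a floor of 10 it was at least 9.74-fold. The same floors gave at least 5.05-fold and at least 25.3-fold in MKK2-A. Between the lines, where both signals were above every floor used, AT1G33760 was 2.59-fold higher in MKK2-A than in MKK2-B. The order of its levels was thus MKK2-A, MKK2-B, Col-0.

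AT1G64380 ran the opposite way in MKK2-A. Its signal was 67.2 in MKK2-A, 123 in MKK2-B and 153 in Col-0, all above the floor. It was 2.28-fold lower in MKK2-A than in Col-0. The MKK2-B signal lay near that of Col-0, at 0.806-fold of it, a log2 ratio of -0.31. MKK2-A had 0.545-fold the signal of MKK2-B, a log2 ratio of -0.88, which is short of the 2-fold threshold. The order of its levels was Col-0, MKK2-B, MKK2-A, the reverse of the order for AT1G33760.

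ORA47 followed neither order. Its signal was 150.1 in MKK2-A, 249 in MKK2-B and 150.2 in Col-0. MKK2-A and Col-0 thus had almost the same signal, and MKK2-B alone stood above them. ORA47 was 1.66-fold higher in MKK2-B than in Col-0, a log2 ratio of 0.73, and had a log2 ratio of -0.73 in MKK2-A over MKK2-B. No ORA47 ratio reached 2-fold. The sign of the small difference between MKK2-A and Col-0 has no meaning, since the log2 ratio was -0.0015 as reported and 0.050 after loess centring.

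**Figure D1:**
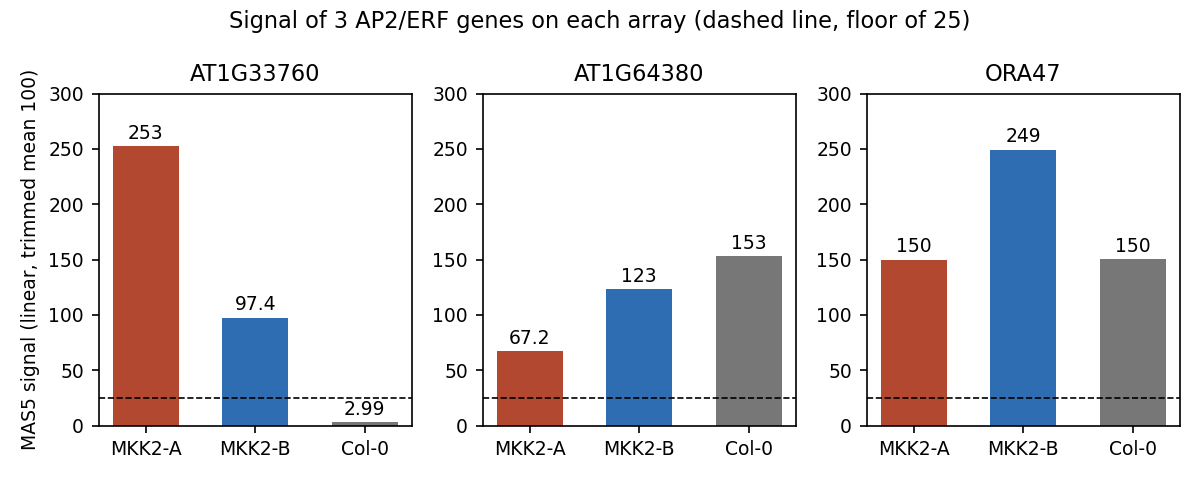
MAS5 signal (linear scale) of AT1G33760, AT1G64380 and ORA47 on the MKK2-A, MKK2-B and Col-0 arrays, 1 bar for each array, with the floor of 25 as a dashed line. AT1G33760 stands at 253 and 97.4 in the lines against 2.99 in Col-0, AT1G64380 is lowest in MKK2-A at 67.2, and ORA47 is highest in MKK2-B at 249.

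With 1 array for each genotype, the spread of ratios over other probe sets is the only scale against which these values can be set. It holds array noise and real differences together. Among the 8044 probe sets whose higher signal was between 50 and 400, the central 95% of ratios of MKK2-A to Col-0 ran from 0.567-fold to 2.09-fold. For MKK2-B over Col-0 it ran from 0.572-fold to 1.82-fold over 8132 probe sets, and for MKK2-A over MKK2-B from 0.622-fold to 1.73-fold over 7919. No other probe set of that signal class was as far above Col-0 in MKK2-A as AT1G33760, and 16 of 8132, itself included, were as far above Col-0 in MKK2-B. AT1G64380 was among the lowest 35 of 8044 in MKK2-A over Col-0, which is 0.435% of them, and among the lowest 76 of 7919 in MKK2-A over MKK2-B. In MKK2-B over Col-0, 21.7% of the class lay as low as AT1G64380, so that value was ordinary. The ORA47 ratio of MKK2-B to Col-0 was reached by 294 of 8132 probe sets, or 3.62%, and lay inside the central 95%. Its ratio of MKK2-A to MKK2-B was among the lowest 1.89% and lay just outside. These shares describe where genes picked for their ratios fall on the arrays and carry no test.

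The genes with the most similar pattern were found among 3319 probe sets that name 1 gene and reach a signal of 100 on an array, by the distance between their pairs of log2 ratios to Col-0, 1 for each line. Both ratios share the Col-0 array, and the likeness of the genes found follows from the search itself. Nearest to AT1G33760 were AT3G04640, a glycine-rich protein gene, at a distance of 0.33, AT2G27080 at 0.43 and AT5G52050, an efflux carrier gene, at 0.51. These distances rest on the floor, since the AT1G33760 ratios are bounds. AT3G04640 had signals of 1035, 548 and 124 in MKK2-A, MKK2-B and Col-0, the same order as AT1G33760. Nearest to AT1G64380 were DIM1A, an rRNA dimethyltransferase gene, at 0.088, AT1G80000 at 0.16 and AT3G03790 at 0.17. DIM1A had signals of 137, 234 and 307. Nearest to ORA47 were AT1G12800 at 0.046, AT4G28080 at 0.062 and AT4G27700 at 0.064. AT1G12800 had signals of 324, 514 and 317, with MKK2-A close to Col-0 and MKK2-B above both.

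The rest of the family gives the setting for these contrasts. Of 139 AP2/ERF genes listed, 44 have a probe set naming 1 gene: 29 DREB, 10 ERF and 5 AP2 genes. The other 95, among them many well-studied members, were not analysed here. Signals were under the floor on all arrays for 18 of the 44, between the floor and 100 on at least 1 array for 17, and at least 100 on an array for 9.

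In MKK2-A over Col-0, 3 of the 44 were 2-fold or more higher and 2 lower, against 1.4% of all probe sets higher and 0.391% lower. Of these 5 genes, AT1G33760 and AT1G64380 had been chosen for their ratios. The other 3 were AT1G77640 and AT5G61590 above Col-0 and AT2G44940 below it. AT1G77640, the DREB gene also called ERF013, had signals of 196 in MKK2-A and 116 in MKK2-B, against 33.7 in Col-0. It was 5.81-fold higher in MKK2-A and 3.45-fold higher in MKK2-B, with MKK2-A 1.69-fold above MKK2-B. It thus followed the order of AT1G33760, with a Col-0 signal that was above the floor.

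AT5G61590, the ERF gene DEWAX, a known repressor of cuticular wax synthesis, had signals of 957 in MKK2-A and 880 in MKK2-B, against 413 in Col-0. It was 2.32-fold higher in MKK2-A and 2.13-fold in MKK2-B, and the lines were close to each other, with a ratio of 1.09. AT5G07580, a second gene of the ERF subfamily, had signals of 404, 301 and 218 in MKK2-A, MKK2-B and Col-0, with log2 ratios of 0.89 and 0.47 that fell short of 2-fold. AT1G44830, a DREB gene, had 138, 118 and 116, close to level on all arrays.

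Below Col-0, AT2G44940, a DREB gene, had signals of 47.3 in MKK2-A and 61.5 in MKK2-B, against 95.6 in Col-0. It was 2.02-fold lower in MKK2-A, only just past the threshold. It fell short of 2-fold with quantile normalization, loess centring, a floor of 50 or a pseudocount of 16. LEP (LEAFY PETIOLE), an ERF-subfamily gene of leaf development, had 58.1 in MKK2-A and 98.0 in MKK2-B, against 112 in Col-0. Its log2 ratio was -0.95 in MKK2-A and -0.19 in MKK2-B, a pattern near that of AT1G64380 but short of the threshold. AT2G41710, of the AP2 subfamily, had 136, 152 and 215, with log2 ratios of -0.66 and -0.50.

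**Figure D2:**
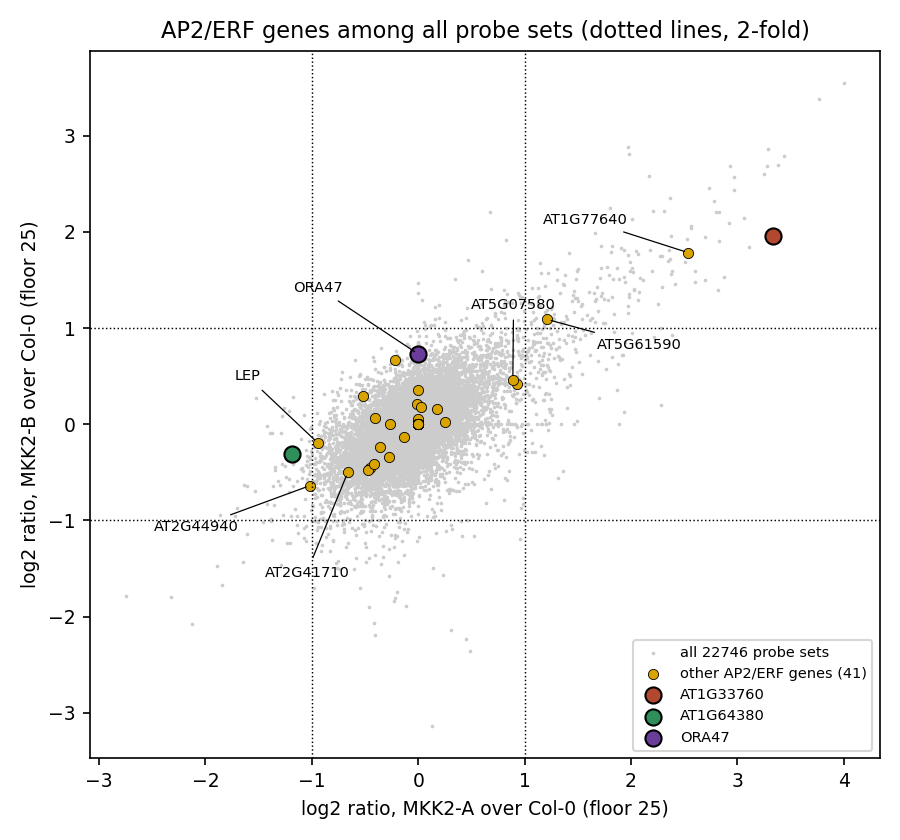
Log2 ratio to Col-0 in MKK2-A (horizontal axis) and MKK2-B (vertical axis) with signals under 25 set to 25, for all 22746 probe sets (grey), 41 other AP2/ERF genes (yellow) and the 3 chosen genes (large points); dotted lines mark 2-fold. AT1G33760 and AT1G77640 lie at the upper right, AT1G64380 at the left, and ORA47 above the centre, at -0.0015 for MKK2-A and 0.73 for MKK2-B.

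In MKK2-B over Col-0, 3 of the 44 were 2-fold or more higher and none lower, against 0.941% of all probe sets higher and 0.536% lower. The higher ones were AT1G33760, AT1G77640 and AT5G61590. AT1G33760 had been chosen for its ratios, and without the 3 chosen genes 2 of 41 were higher. No AP2/ERF gene measured here had a ratio to Col-0 in MKK2-B as far down as the 2-fold threshold at the floor of 25, while 1 did at a floor of 10, where 360 of 22746 probe sets did. Both comparisons use the same Col-0 array.

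Between the lines, AT1G33760 was the only one of the 44 that was 2-fold or more higher in MKK2-A than in MKK2-B. None was lower, against 0.585% of all probe sets higher and 0.18% lower. AT1G33760 had been chosen for its ratios, and without the 3 chosen genes none of the other 41 was higher or lower. At a floor of 10, 3 of the 44 were 2-fold or more lower, as were 346 of 22746 probe sets. The median log2 ratio of the 44 was 0 in each comparison, as it was over all probe sets, because many had both signals under the floor. Over the family genes with at least 1 of the paired signals above it, the medians were -0.24 in MKK2-A over Col-0 (24 genes), 0.055 in MKK2-B over Col-0 (26 genes) and -0.16 in MKK2-A over MKK2-B (22 genes). The same medians over all probe sets so measured were -0.085, -0.039 and -0.044. Without the 3 chosen genes the family medians were -0.26, 0.051 and -0.15. In MKK2-A over Col-0, 39 of the 44 were within 2-fold, 20 of them with both signals under the floor.

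The order of the arrays can be set out for the 9 family genes with a signal of at least 100. The order of AT1G33760 (MKK2-A, MKK2-B, Col-0 from high to low) was also that of AT1G77640, AT5G61590, AT5G07580 and AT1G44830. Of all 6697 probe sets with a signal of at least 100 on an array, 15.5% had this order. The order of AT1G64380 (Col-0, MKK2-B, MKK2-A) was also that of LEP and AT2G41710, and of 19.9% of the 6697. ORA47 alone of the 9 had MKK2-B highest. Of the 6697, 14.8% had the order MKK2-B, Col-0, MKK2-A and 15.3% had the order MKK2-B, MKK2-A, Col-0. The MKK2-A and Col-0 signals of ORA47 were almost the same, so which of these orders it has is not settled. Some dimmer family genes also had MKK2-B highest. Among them was SNZ, with 38.6 in MKK2-A, 71.3 in MKK2-B and 44.7 in Col-0. Several of the 9 reached 100 only on the arrays where they were high, and the chosen genes among them were picked for their directions. The orders are thus a description, and for AT1G44830 the MKK2-B and Col-0 signals were nearly equal.

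**Figure D3:**
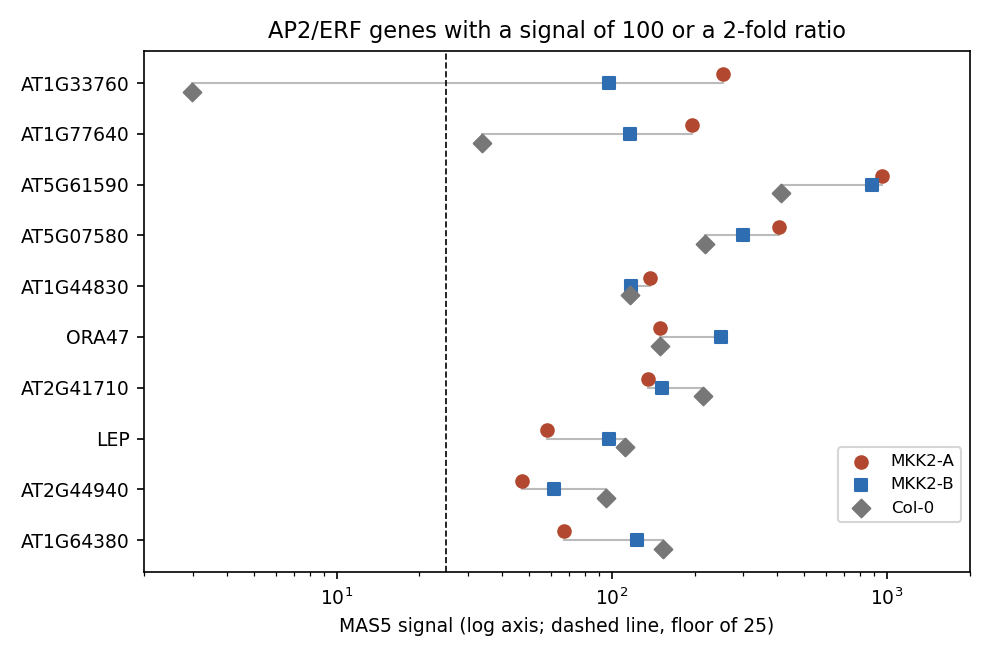
MAS5 signals (log axis) on the MKK2-A (circles), MKK2-B (squares) and Col-0 (diamonds) arrays for the 10 AP2/ERF genes that reached a signal of 100 or a 2-fold ratio, sorted by the ratio of MKK2-A to Col-0; a grey line joins the lowest and highest signal of a gene, the symbols are offset vertically for legibility and the dashed line is the floor of 25. MKK2-A is the highest array for the 5 genes at the top and the lowest for the 4 at the bottom, and ORA47 is set apart by its MKK2-B signal of 249.

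Because ORA47 is known to act on jasmonate synthesis, the jasmonate genes were described beside it. Of 49 listed, 10 have a probe set naming 1 gene, and the enzymes best known as ORA47 targets are not among them. In MKK2-A over Col-0, 3 of the 10 were 2-fold or more higher and none lower. In MKK2-B 2 were higher and none lower, and between the lines none differed 2-fold. Of all probe sets, 1.4% were higher and 0.391% lower in MKK2-A over Col-0, and 0.941% and 0.536% in MKK2-B over Col-0. In MKK2-A over MKK2-B the shares were 0.585% and 0.18%. Over the 10 genes the median log2 ratio stood at 0.30 in MKK2-A over Col-0, 0.51 in MKK2-B over Col-0 and 0.10 in MKK2-A over MKK2-B, where the median of all probe sets was 0. Both medians over Col-0 rest on dim genes, since with a floor of 50 they were 0.073 in MKK2-A and 0 in MKK2-B.

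In jasmonate synthesis, OPCL1, which activates a precursor for beta-oxidation, had signals of 182 in MKK2-A and 152 in MKK2-B, against 84.3 in Col-0. It was 2.16-fold higher in MKK2-A and 1.81-fold in MKK2-B. OPCL1 was above Col-0 in MKK2-A, where ORA47 was level with Col-0. Any link of ORA47 to OPCL1 or to the genes below was not tested. In jasmonate turnover, AT5G05600, an enzyme gene of jasmonate hydroxylation, had 183 and 152 in MKK2-A and MKK2-B, against 27.7 in Col-0. PDF1.2, a defensin gene of the jasmonate and ethylene output, had 275 and 519, against 70.1 in Col-0. Like ORA47 it was higher in MKK2-B than in MKK2-A, with a log2 ratio of MKK2-A to MKK2-B of -0.91, where that of ORA47 was -0.73. Unlike ORA47, PDF1.2 was also above Col-0 in MKK2-A, by 3.93-fold. The other jasmonate hydroxylation genes were dim and are named here after their values were seen: JRG21 (AT3G55970) had a signal of 40.1 in MKK2-B and was under the floor in MKK2-A and Col-0, AT2G38240 had 64.2, 58.8 and 37.5 in MKK2-A, MKK2-B and Col-0, with MKK2-A highest, and AT3G11180 was under the floor on all arrays. In signalling, MYC4, a transcription factor gene of the jasmonate response, had 128, 106 and 116 in MKK2-A, MKK2-B and Col-0 and differed little. The other signalling gene measured, the dimmer MYC3, had 89.3, 72.3 and 96.3, with a log2 ratio of -0.41 in MKK2-B over Col-0. Both MYC genes were lowest in MKK2-B, where ORA47 was highest. None of the 6 abscisic acid synthesis genes listed has a probe set naming 1 gene.

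All 3 genes lie on chromosome 1, and their neighbours in the TAIR10.1 gene order were described beside them. The 3 nearest genes on each side with a probe set naming 1 gene were taken, 18 in all, of which 7 were under the floor on all arrays. None of the 18 differed 2-fold in any of the 3 comparisons, against the low shares of all probe sets given above for each, so the count says little about a region. Next to AT1G33760, 4 of 6 neighbours were under the floor on all arrays, AT1G33780 had signals of 234, 271 and 239 in MKK2-A, MKK2-B and Col-0, and AT1G33770 had 21.9, 35.2 and 36.2. Next to AT1G64380, AT1G64370 had 410, 393 and 318, above Col-0 in both lines, where AT1G64380 was below it. AT1G64355, on the same side, had 177, 215 and 228, the same order as AT1G64380. Next to ORA47, ALDH10A8, an aldehyde dehydrogenase gene, had 1002, 779 and 920 and was lowest in MKK2-B, where ORA47 was highest. AT1G74940, on the other side of ORA47, had 66.2, 68.2 and 60.5, with MKK2-B highest. The log2 ratios of the 18 neighbours lay between -0.53 and 0.37 in MKK2-A over Col-0 and between -0.26 and 0.30 in MKK2-B over Col-0. The differences seen at AT1G33760 and AT1G64380 in MKK2-A were larger than those of any neighbour measured here. Both genes were chosen for such differences, so this comparison was largely settled in advance and says nothing about a region.

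**Figure D4:**
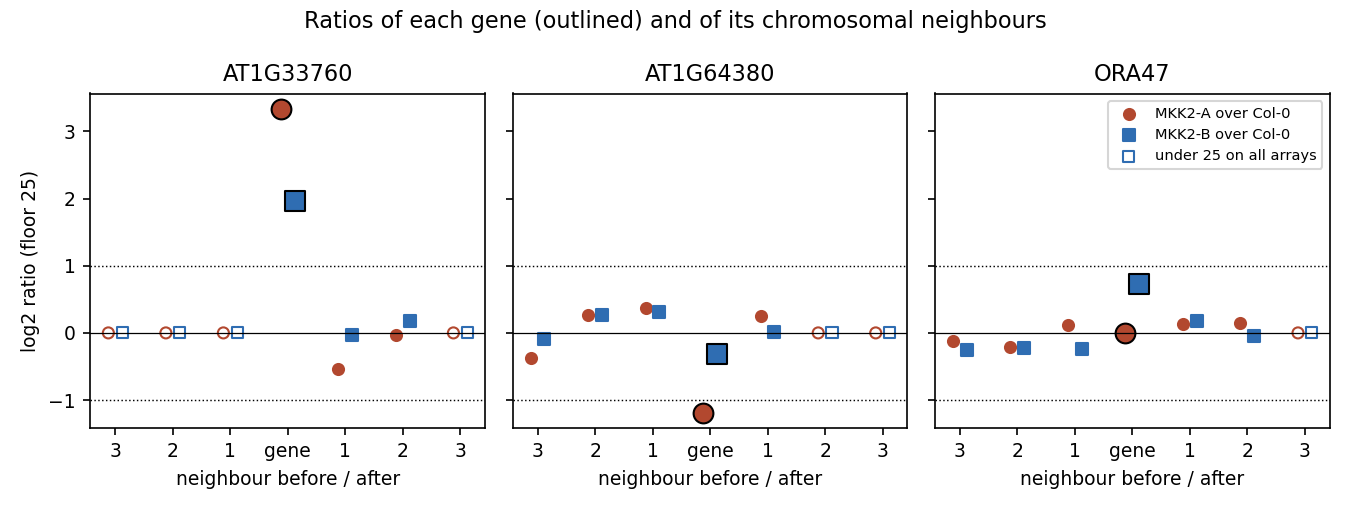
Log2 ratio to Col-0 in MKK2-A (circles) and MKK2-B (squares) for each of the 3 genes (large outlined symbols) and for the 3 nearest genes with a named probe set on either side, with signals under 25 set to 25; open symbols are neighbours under 25 on all arrays, which have a ratio of 0 by construction, and dotted lines mark 2-fold. All 18 neighbours stay within 2-fold, with log2 ratios between -0.53 and 0.37.

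The directions were compared under other scalings and other treatments of low signals. AT1G64380 stayed below Col-0 in MKK2-A by 2-fold or more under all 6 alternatives, with ratios from 2.03-fold lower with a pseudocount of 16 to 2.28-fold lower. ORA47 was between 1.60-fold and 1.71-fold higher in MKK2-B than in Col-0 and never reached 2-fold. AT1G33760 was between 2.37-fold and 2.61-fold higher in MKK2-A than in MKK2-B.

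**Figure D5:**
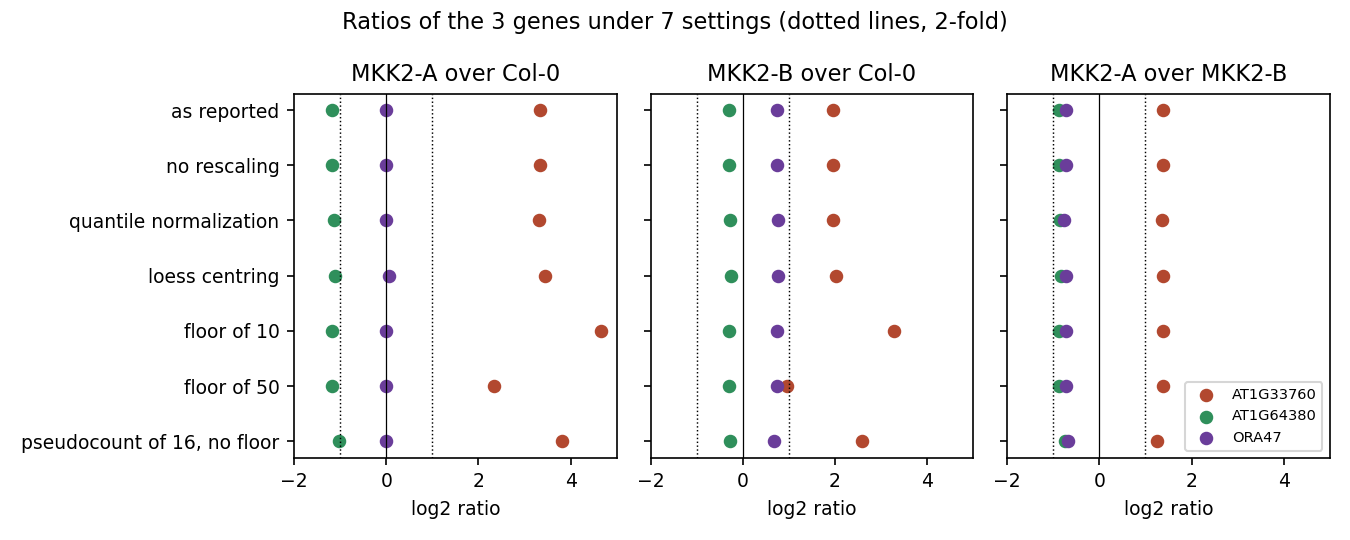
Log2 ratios of AT1G33760, AT1G64380 and ORA47 in the 3 comparisons as reported and under 6 alternatives of scaling and of low signals; dotted lines mark 2-fold. AT1G33760 moves with the floor against Col-0, between 2.34 and 4.66 in MKK2-A and between 0.96 and 3.28 in MKK2-B, while every AT1G64380 and ORA47 point stays on the same side of the 2-fold lines.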

How the data were processed

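The authors deposited 1 intensity for each probe set and array, which the submitters' processing notes name as MAS5. Neither its version nor any detection call is given. The trimmed mean, leaving out 2% at each end, was 100.01 on every array. Arrays were rescaled to exactly 100, signals under 25 were set to 25, and log2 ratios were taken; 64 of 22810 probe sets are controls and were left out of the comparisons. MAS5 values of dim probe sets are imprecise, so ratios to such signals are bounds. Genes were named through the platform annotation and TAIR10.1 gene numbers: 13513 probe sets name 1 gene, 503 several and 8730 none. The brightest probe set stood for a gene that had more than 1. Genes named in the text are the 3 chosen genes, listed genes with a signal of at least 100 on an array or a 2-fold ratio, the 3 most alike genes, the 3 nearest neighbours on each side and the tissue markers. The dim genes JRG21, AT2G38240, AT3G11180, MYC3, SNZ and TINY fall outside this rule and were named after their values were seen. Members and lists were chosen with earlier results of these data known. Alternatives covered scaling (none, quantile normalization, or loess with a span of 0.4), low signals (floors of 10 and 50, or a pseudocount of 16), thresholds (1.5-fold and 3-fold), leaving out suffixed probe sets, and averaging the probe sets of a gene. No sequences were used here, so a planned description of proteins and promoters was not made. The counting was tested on simulated data with changes well past the threshold, planted in bright probe sets. That test does not bear on calls near the threshold or the floor. Python 3.11.15, numpy 2.4.6, pandas 2.3.3, statsmodels 0.14.6 and matplotlib 3.10.9 were used.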

Additional observations from a re-analysis of the deposited data

Results flagged for a closer look

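MYC4 was above Col-0 in 1 line and below it in the other, with log2 ratios of 0.15 in MKK2-A and -0.13 in MKK2-B. So was ALDH10A8, the gene beside ORA47, with 0.12 in MKK2-A and -0.24 in MKK2-B. The search covered only genes that met the naming rule above, and singled out those where both ratios were at least 0.1 from 0. The ratios of MYC4 and ALDH10A8 lay within the spread over probe sets with both signals at least 100. That spread, a measure like a standard deviation, was 0.25 log2 in MKK2-A over Col-0 and 0.28 in MKK2-B over Col-0. Outside the rule, the dim AP2/ERF genes SNZ and TINY also lay on opposite sides of Col-0. SNZ had log2 ratios of -0.21 in MKK2-A and 0.67 in MKK2-B, and TINY had -0.52 and 0.30. These differences between the lines were not tested, since each line has 1 array.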

How the results depend on the processing

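No paired analysis was possible because each genotype has 1 array, and for the same reason no replicate could be left out. The ratios of AT1G64380 and ORA47 moved by less than the spread over probe sets with a higher signal of 50 to 400, under each of the 6 alternatives run for them. For AT1G33760 the log2 ratio of MKK2-A to Col-0 was 4.66 with a floor of 10, 2.34 with a floor of 50 and 3.82 with a pseudocount of 16 and no floor, and that of MKK2-B to Col-0 was 3.28, 0.96 and 2.58; the Col-0 signal under the floor is the reason, by construction. Among the 44 AP2/ERF genes, the number lower in MKK2-A over Col-0 was 2 as reported and 1 with quantile normalization, loess centring, a floor of 50 or the pseudocount. At 1.5-fold it was 4, and at 3-fold 0. At 1.5-fold, 5 were higher in MKK2-A over Col-0, 5 higher and 1 lower in MKK2-B over Col-0, and 2 higher and 5 lower in MKK2-A over MKK2-B, while at 3-fold 0 were higher in MKK2-A over MKK2-B. A floor of 10 gave 1 lower in MKK2-B over Col-0 and 3 lower in MKK2-A over MKK2-B, and the pseudocount gave 1 lower in MKK2-A over MKK2-B. Of the 10 jasmonate genes, 5 were higher in MKK2-B over Col-0 and 2 lower in MKK2-A over MKK2-B at 1.5-fold. Their median log2 ratio to Col-0 with a floor of 50 was 0 in MKK2-B, against 0.51, and 0.073 in MKK2-A, against 0.30. Over all probe sets, in MKK2-A over Col-0, 318 were higher and 89 lower as reported. At 1.5-fold they were 754 and 891, and at 3-fold 121 and 12. The lower ones were 58 with quantile normalization, 51 with loess centring, and 508 and 37 with floors of 10 and 50. With a floor of 10, 449 were higher. The higher share of those differing was 78.1% as reported, 88.5% with loess centring and 46.9% with a floor of 10, where the majority was lower. In MKK2-B over Col-0, 214 were higher and 122 lower as reported, 701 and 709 at 1.5-fold, 69 and 17 at 3-fold, and 405 and 360 with a floor of 10, and 57 were lower with a floor of 50. In MKK2-A over MKK2-B, 133 were higher and 41 lower as reported, 533 and 550 at 1.5-fold, 21 and 1 at 3-fold, 276 and 346 with a floor of 10, and 73 and 13 with a floor of 50. Where no reason is given, the cause was not tested. For the 18 AP2/ERF genes under the floor on all arrays, ratios are 0 by construction.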
